A study of Mus musculus with 4 samples.

Results

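The respiratory chain genes described here encode the subunits of complexes I to IV and of the ATP synthase (complex V). They were chosen by gene symbol in organoids grown from adult and fetal mouse small intestine. The symbol patterns covered the protein-coding genes of mitochondrial DNA and the nuclear Nduf, Sdh, Uqcr, Cox and Atp5 families, without pseudogenes. They gave 96 of 55416 gene identifiers, of which 13 lie in mitochondrial DNA and 83 in the nucleus. By complex, mitochondrial DNA contributed 7 genes to complex I, 1 to complex III, 3 to complex IV and 2 to complex V. The nucleus contributed 35, 4, 8, 17 and 18 genes to complexes I, II, III, IV and V. Ndufa4 was counted with complex IV, and Atp5s, a coupling factor, was kept apart from complex V. The patterns leave out a few nuclear subunits, such as Cox4i1 and Cyc1, which are given separately further on.

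The libraries were made from poly-A selected RNA of small intestinal organoids, cultures of gut epithelium in a basement-membrane gel. Adult organoids came from C57BL/6 mice aged 4 to 8 weeks and fetal organoids from C57BL/6 embryos at E15.5 (days of embryonic development), with 2 libraries in each group. Both kinds were kept in the same commercial medium, IntestiCult, and neither carried an engineered allele or a further treatment per the labels. Separate animals or cultures behind the 2 libraries of a group are not named, so a p-value here reflects no more than how far these libraries scatter, and that scatter may be technical.

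The respiratory chain passes electrons from NADH and succinate through complexes I and II to coenzyme Q, on to complex III and cytochrome c, and to oxygen at complex IV. Complexes I, III and IV pump protons, and complex V uses the gradient to make ATP. Complex II is built from nuclear genes only, while the others combine subunits from both genomes, so their assembly draws on RNA made in the mitochondrion and RNA made in the nucleus. In the intestine, absorptive cells and crypt cells are known to differ in how far they rely on this route.

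Mitochondrial DNA is transcribed into long precursors that are then processed, and 2 pairs of its protein-coding genes share bases. These pairs are shown because reads in the shared stretch belong to both genes. The coding sequence of mt-Nd4l, a complex I subunit, ends inside mt-Nd4 (7 shared bases, in capitals), and that of mt-Atp8, a complex V subunit, ends inside mt-Atp6 (43 shared bases, in capitals). Sequences are from GENCODE M21 (GRCm38), plus strand, at chrM:9877-10173 and chrM:7766-7969.
mt-Nd4l: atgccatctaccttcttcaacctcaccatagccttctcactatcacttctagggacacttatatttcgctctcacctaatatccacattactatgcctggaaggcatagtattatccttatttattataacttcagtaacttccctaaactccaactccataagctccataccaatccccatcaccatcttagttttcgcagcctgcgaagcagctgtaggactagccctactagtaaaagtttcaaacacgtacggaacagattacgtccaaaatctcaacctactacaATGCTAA
mt-Atp8: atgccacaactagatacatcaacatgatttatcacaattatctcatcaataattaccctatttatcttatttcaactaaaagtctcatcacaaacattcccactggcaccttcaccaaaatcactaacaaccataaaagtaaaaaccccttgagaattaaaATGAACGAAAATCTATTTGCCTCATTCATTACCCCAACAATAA

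Nuclear pseudogenes repeat parts of mitochondrial DNA, and some carry nearly the whole gene. In GENCODE M21, the chromosome 1 pseudogene Gm10925 was identical to mt-Atp6 over 678 of its 681 bases. The like figures were 681 of 684 bases for mt-Co2 (Gm28661), 783 of 784 for mt-Co3 (Gm28437), 342 of 348 for mt-Nd3 (Gm28438), 294 of 297 for mt-Nd4l (Gm10222) and 876 of 1378 for mt-Nd4 (Gm28439). For mt-Co1 the longest identical run was 479 of 1545 bases (Gm29216). These pseudogenes lie side by side on the minus strand between positions 24611535 and 24616197 of chromosome 1 (GRCm38). Short reads inside an identical stretch cannot be told apart, and the deposited table gives counts to both members of each pair. Gm10925 held 21786 and 22170 CPM (counts scaled to a common library size with TMM factors) in the adult libraries, more than mt-Atp6 itself at 14544 and 13704. Values of these 7 genes are therefore given both as deposited and with the pseudogene counts added. The search covered annotated pseudogenes only. In it the remaining genes, mt-Nd1, mt-Nd2, mt-Nd5, mt-Nd6, mt-Cytb and mt-Atp8, had no such copy, or copies with at most 1.90 CPM.

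The libraries held 12449681 and 10862147 (adult) and 13061585 and 12184259 (fetal) estimated counts over genes. Of 14271 genes tested with edgeR (TMM scaling, Benjamini-Hochberg adjusted p under 0.05), 4662 (32.7%) were lower and 4833 (33.9%) higher in fetal organoids. With most genes called, small differences pass the test, and the scaling sets where 0 lies. The log2 fold change at the middle of all genes tested was 0.01 under TMM, 0.25 under library totals and 0.35 for limma on log2(TPM + 1). All 6 epithelial markers were present, summing to 4122 to 4126 CPM in adult and 6669 to 6694 CPM in fetal organoids, with 4 of them called higher and 2 lower. The 7 mesenchymal markers summed to 3.59 to 3.81 CPM in adult and 64.2 to 66.8 CPM in fetal organoids. Of the mesenchymal markers 6 were tested and all 6 were called higher, and Col1a2, Col3a1 and Dcn were at 0 counts in both adult libraries. Their part in the differences below was not tested. Muscle, endothelial, red blood cell and neural markers each summed to at most 2.71 CPM in any library, with Ckm, a muscle marker, at 0 in all 4. Immune markers summed to 0.601 to 0.875 CPM in adult and 3.80 to 3.84 CPM in fetal libraries, and the 1 tested was called higher. Neural markers summed to 1.84 to 2.71 CPM in adult and 0.608 to 0.628 CPM in fetal libraries, and the 1 tested was called lower. In bulk RNA, fewer cells of a type and less RNA per cell cannot be told apart.

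All 13 protein-coding genes of mitochondrial DNA were lower in fetal organoids. As deposited, the fall was 2.46-fold (mt-Nd1) to 5.04-fold (mt-Nd4l), with a median of 2.85-fold. Each was called in edgeR, and both fetal libraries lay below both adult libraries for each of the 13. Over all genes tested, 32.7% were called lower and 40.8% had both fetal libraries below both adult ones. The 13 genes together held 17.06% and 16.82% of adult counts and 6.61% and 7.38% of fetal counts. That is 16.9% ± 0.170 (SD, n = 2) in adult against 6.99% ± 0.549 in fetal organoids, a difference of -9.94 percentage points. Over 2 against 2 libraries the exact two-sided permutation test gives 0.333 at the least, and it gave p = 0.333. With the pseudogene counts added, both adult shares were 21.6%, and the fetal shares were 8.94% and 9.91%. The fall of the 13 genes was then 2.36-fold (mt-Co2) to 3.35-fold (mt-Nd4), with a median log2 fold change of -1.47.

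**Figure D1:**
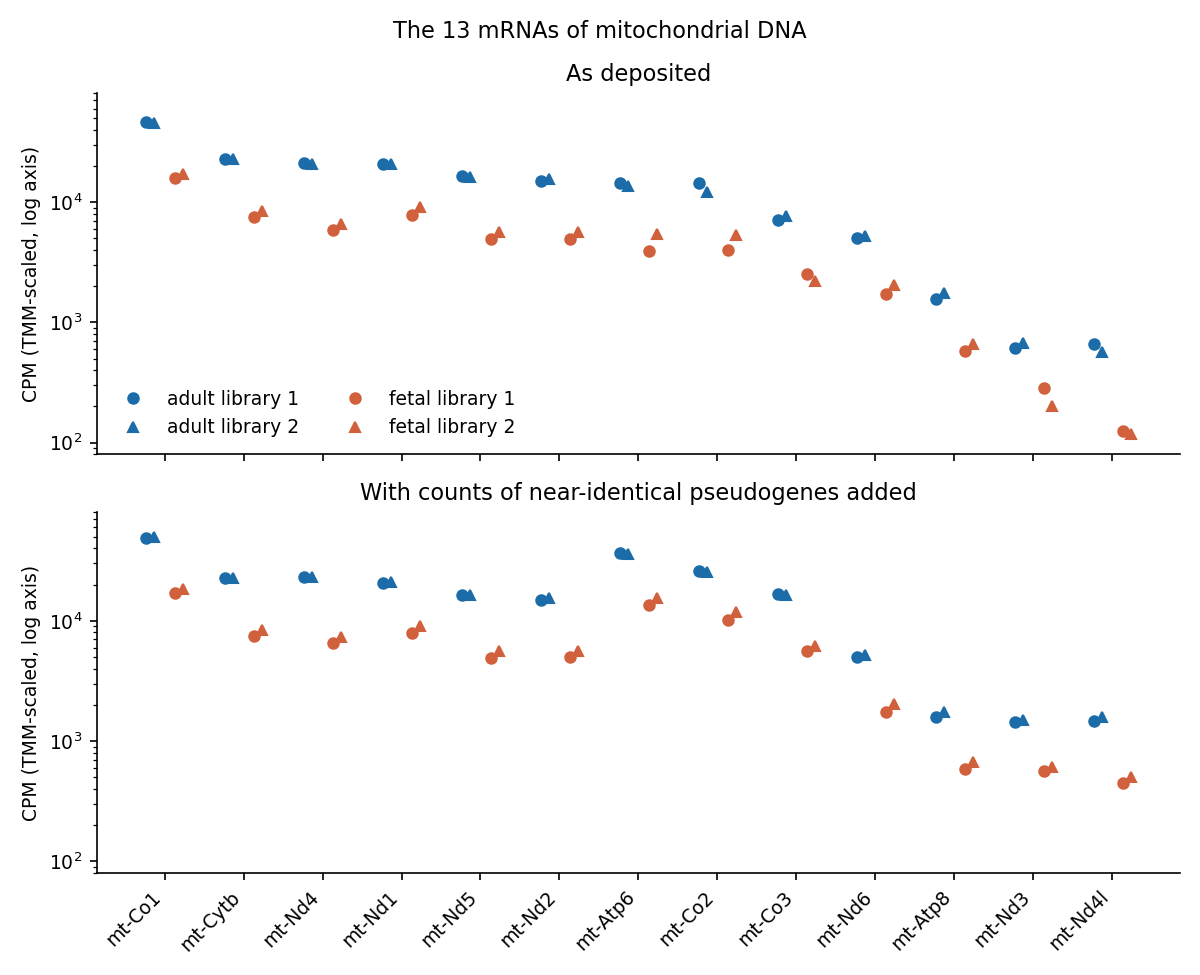
CPM (TMM-scaled, log axis) of the 13 mitochondrial protein-coding genes in each library, as deposited (top) and with counts of near-identical pseudogenes added (bottom). Each point is 1 library. Fetal points lie below adult points for every gene in both panels, and the distance for mt-Nd4l is smaller once pseudogene counts are added.

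Complex I takes 7 subunits from mitochondrial DNA, which form the core of its membrane arm, and all 7 fell. mt-Nd1, which borders the coenzyme Q site, stood at 20630 and 20857 CPM in adult and 7879 and 9019 CPM in fetal libraries. Its log2 fold change, -1.30 ± 0.06 (SE), was the smallest of the 13 as deposited (edgeR adjusted p = 1.41e-09). mt-Nd2, a proton-pumping subunit, was at 15032 and 15441 CPM in adult and 4973 and 5658 CPM in fetal libraries (-1.52 ± 0.06). The adult libraries agreed closely for both genes, while fetal library 2 was above fetal library 1.
mt-Nd4, another pumping subunit, went from 21235 and 20650 CPM to 5906 and 6602 CPM. Its log2 fold change of -1.74 ± 0.06 was the same to 2 decimals with its pseudogene added. mt-Nd5, at the far end of the pumping arm, measured 16359 and 16297 CPM in adult and 4939 and 5647 CPM in fetal libraries (-1.63 ± 0.06). In both genes the groups lay far apart beside the difference within either group.
mt-Nd4l held 656 and 565 CPM in adult and 124 and 118 CPM in fetal libraries, a log2 fold change of -2.33 ± 0.06. Its pseudogene Gm10222 held 803 and 1011 CPM in adult and 328 and 385 CPM in fetal libraries, 1.23 and 1.79 times mt-Nd4l in adult and 2.64 and 3.26 times in fetal libraries. With both added, the log2 fold change was -1.67 ± 0.05 (edgeR adjusted p = 8.64e-12), so the 5.04-fold value came down to 3.18-fold.
mt-Nd3, a small membrane subunit, was at 615 and 677 CPM in adult and 286 and 201 CPM in fetal libraries (-1.40 ± 0.11). The fetal libraries differed from each other more than for the other genes of this complex as deposited. With the pseudogene added they were at 567 and 606 CPM against 1439 and 1505 CPM, a log2 fold change of -1.33 ± 0.04.
mt-Nd6 is the only protein-coding gene on the light strand of the genome. It measured 5037 and 5198 CPM in adult and 1731 and 2030 CPM in fetal libraries (-1.44 ± 0.06). No source used here says whether the counting used strand, so reads of mt-Nd6 and of RNA complementary to it cannot be told apart.

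The mitochondrial gene of complex III is mt-Cytb, the cytochrome b subunit that holds both quinone sites. It was at 22651 and 22613 CPM in adult and 7453 and 8430 CPM in fetal libraries. The log2 fold change was -1.51 ± 0.06 (edgeR adjusted p = 2.30e-10), and the groups did not overlap.

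Complex IV has its catalytic core in mt-Co1, mt-Co2 and mt-Co3. mt-Co1, which binds the oxygen-reducing center, had the highest count of the 13, with 45941 and 45644 CPM in adult and 15834 and 16984 CPM in fetal libraries (-1.48 ± 0.05, and -1.47 with pseudogenes added). mt-Co2, which accepts electrons from cytochrome c, went from 14365 and 12080 CPM to 4006 and 5312 CPM as deposited. With its copies it went from 26075 and 25507 CPM to 10069 and 11750 CPM, which moved the log2 fold change from -1.50 ± 0.11 to -1.24 ± 0.06. mt-Co3 went from 7154 and 7619 CPM to 2529 and 2215 CPM (-1.64 ± 0.06, and -1.48 ± 0.05 with its copy). For mt-Co2 and mt-Co3 the libraries within a group lay closer together as a ratio after the copies were added. In CPM this did not hold for each group.

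Complex V takes mt-Atp6, the proton channel subunit, and mt-Atp8 from mitochondrial DNA. mt-Atp6 measured 14544 and 13704 CPM in adult and 3942 and 5469 CPM in fetal libraries, a log2 fold change of -1.59 ± 0.11. With Gm10925 added the values were 36342 and 35880 CPM against 13468 and 15488 CPM, and the log2 fold change was -1.32 ± 0.06 (edgeR adjusted p = 8.08e-10). mt-Atp8, which shares 43 bases with mt-Atp6 but had no near-identical pseudogene of its own by this search, went from 1574 and 1745 CPM to 580 and 666 CPM (-1.41 ± 0.06).

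Levels can be compared between genes as TPM, which are scaled for length. The comparison is kept to the 6 mitochondrial genes without a near-identical copy among annotated pseudogenes. Among them, the levels of mt-Nd6 and mt-Atp8 remain uncertain. Strand use is unknown for mt-Nd6, and mt-Atp8 shares 43 bases with mt-Atp6. In the adult libraries the order of mean TPM was mt-Nd1 (28325), mt-Cytb (25500.3), mt-Nd2 (19056), mt-Atp8 (15436), mt-Nd6 (13872) and mt-Nd5 (11247). The fetal order was the same, at 15078, 11695, 8688, 7574, 6662 and 4764 TPM. No neighbours in either order overlapped between libraries. The makeup of the mitochondrial mRNA pool also differed. With pseudogene counts added, mt-Nd4 made up 9.82% ± 0.0824 (SD, n = 2) of the counts of the 13 genes in adult and 7.98% ± 0.0209 in fetal organoids. mt-Nd1 made up 8.80% ± 0.0692 in adult and 9.75% ± 0.111 in fetal organoids. The groups did not overlap for either share, and the same held as deposited (11.4% against 9.74% for mt-Nd4, and 11.2% against 13.1% for mt-Nd1). With pseudogene counts added, mt-Co2 made up 10.9% ± 0.168 in adult and 12.6% ± 0.315 in fetal organoids, and mt-Atp6 15.3% ± 0.135 and 16.7% ± 0.246. These shares did not overlap between groups, while as deposited those of both genes did. With pseudogene counts added, the shares of mt-Nd2, mt-Nd3, mt-Nd4l, mt-Nd5 and mt-Cytb also did not overlap. Those of mt-Co1, mt-Co3, mt-Nd6 and mt-Atp8 did. Shares of a fixed total do not move independently of each other.

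The 2 ribosomal RNAs of mitochondrial DNA differed less than its mRNAs. mt-Rnr2, the large ribosomal RNA, was at 3931 and 5083 CPM in adult and 2184 and 2563 CPM in fetal libraries (log2 fold change -0.93 ± 0.10, edgeR adjusted p = 3.60e-06). mt-Rnr1, the small one, was at 1564 and 2174 CPM against 1209 and 1477 CPM (-0.48 ± 0.12, edgeR adjusted p = 0.00374; adjusted p = 0.137 with DESeq2). This call was also lost with library totals (-0.23, edgeR adjusted p = 0.0839) and on log2(TPM + 1) (-0.08, limma adjusted p = 0.742). The 13 protein-coding genes together held 33.8 and 25.2 times the counts of the 2 ribosomal RNAs in adult and 17.7 and 16.9 times in fetal libraries. The adult libraries differed widely in this ratio, but both were above the fetal ones. Ribosomal RNA in poly-A selected libraries is a remnant, and the 22 mitochondrial transfer RNA genes had 0 counts in all 4 libraries.

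Under TMM scaling, nuclear subunit genes moved in the same direction by much less. Of the 83 nuclear genes, 78 passed the filter on low counts, and of those 64 were called lower, 2 higher and 12 neither in edgeR (background 32.7% lower and 33.9% higher). The median fold of the 64 was 1.38, and 2 of them, Cox7a1 and Ndufa6, were at or above 2-fold. Both fetal libraries lay below both adult libraries for 69 of the 78, beside 40.8% of all genes. The median log2 fold change was -0.43 for the 78 nuclear genes, -1.51 for the 13 mitochondrial genes and 0.01 for all genes tested.

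**Figure D2:**
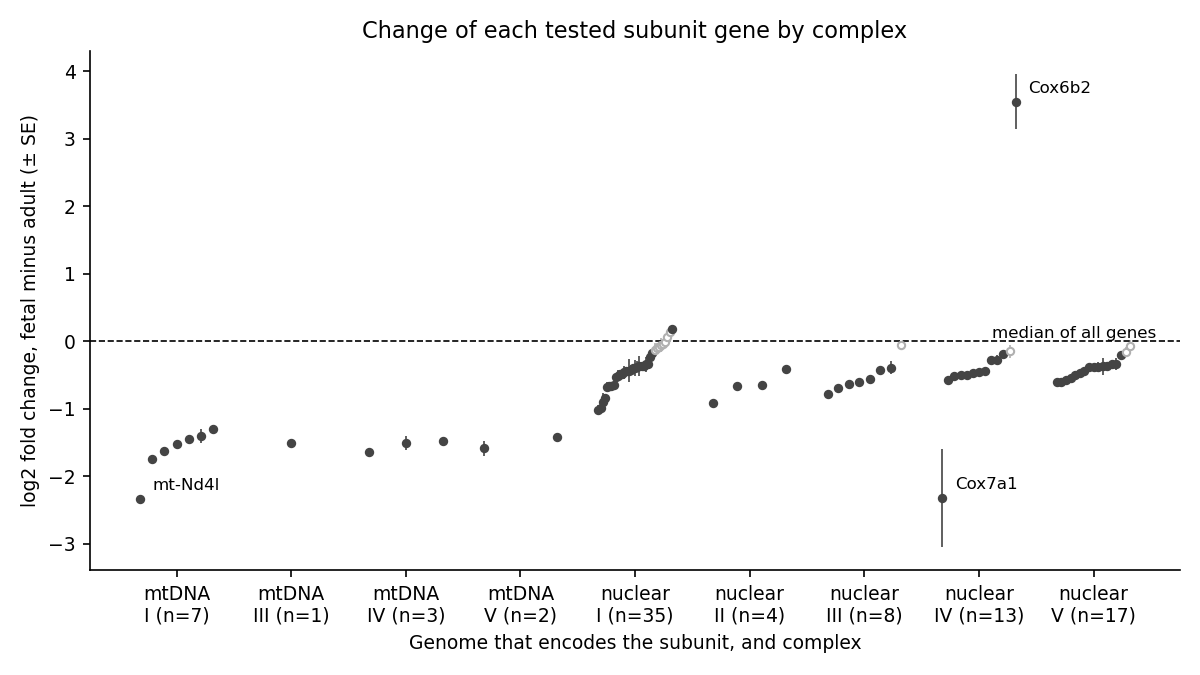
Log2 fold change (fetal minus adult, edgeR with TMM, ± SE) of each tested subunit gene, ordered by size within each complex and split by the genome that encodes it; open grey points were not called, Atp5s is not drawn, and the dashed line is the median of all genes. Mitochondrial genes lie between -1.30 and -2.33, and most nuclear genes lie between 0 and -1.01, with Cox6b2 and Cox7a1 as the far points.

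The nuclear result depends on the scale in its size and its calls, but not in the sign of its median. Its place among all genes changed little. With library totals 41 of the 78 were called lower and 8 higher, where 20.9% and 48.8% of all genes were. With limma on log2(TPM + 1) 24 were called lower and 13 higher of 79 tested, where 11.6% and 44.4% of all genes were. The median nuclear log2 fold change was -0.18 with library totals and -0.06 on TPM. Taken against the median of all genes on the same scale, it was -0.44 for both edgeR scalings and -0.41 for limma on TPM. Of the 78, 74 lay below the median of all genes with TMM and with library totals, and 72 did on TPM. Ndufs6 and Cox5a, called lower with TMM, were called higher on TPM (named after their values were seen). By complex, library totals gave 14 lower and 6 higher in complex I, 4 and 0 in complex II, 6 and 1 in complex III, 8 and 1 in complex IV, and 9 and 0 in complex V. On TPM these were 9 and 9, 3 and 0, 5 and 1, 2 and 2, and 5 and 1. The 13 mitochondrial genes were called lower on each of the 3 scales, with medians of -1.27 on library totals and -1.13 on TPM.

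**Figure D3:**
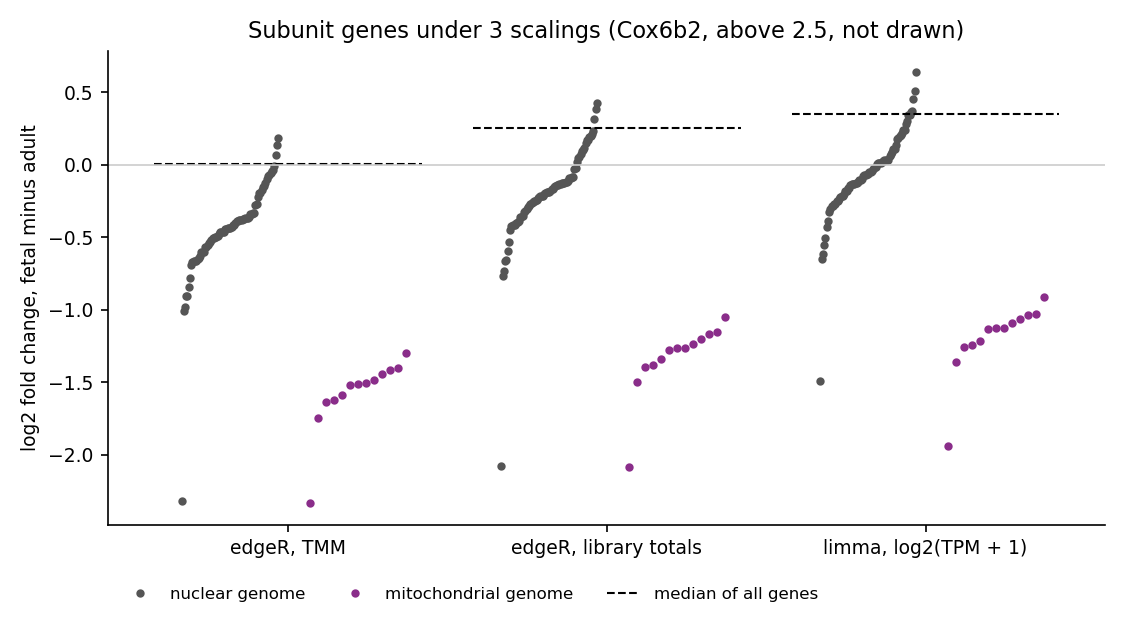
Log2 fold changes of nuclear (grey) and mitochondrial (purple) subunit genes under 3 scalings, each gene 1 point, with the median of all genes as a dashed line; Cox6b2 lies above the drawn range. The nuclear points shift with the scaling together with the dashed line, and the mitochondrial points stay below 0 throughout.

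As a share of TPM, nuclear subunits made up 1.58% and 1.59% of adult and 1.56% and 1.49% of fetal RNA, and as a share of counts 0.988% and 0.997% against 0.862% and 0.838%. The mitochondrial genes made up 24.6% and 24.1% of adult and 10.5% and 11.8% of fetal TPM. Summed TPM of the mitochondrial subunits was 15.6 and 15.1 times that of the nuclear subunits in adult libraries and 6.73 and 7.88 times in fetal libraries. The ratio does not depend on the scaling of a library. Its mean was 2.10 times higher in adult organoids (log2 difference -1.07, exact two-sided permutation p = 0.333, the smallest that 2 against 2 allows), and the groups did not overlap. With pseudogene TPM added on both sides it was 19.9 and 19.7 against 9.39 and 10.9. Each pseudogene TPM is scaled by its own length, such as 492 bases for Gm29216 against 1545 for mt-Co1. The sum is therefore not the TPM of pooled reads, here or in the ratios by complex below.

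The same shift was present in each of the 4 complexes that draw on both genomes. In complex I the ratio was 27.0 and 26.9 in adult and 12.1 and 13.8 in fetal libraries. In complex III it was 12.2 and 11.9 against 5.46 and 6.35, and in complex IV 27.1 and 24.9 against 11.1 and 13.2. Complex V had the lowest ratio as deposited, 6.79 and 6.75 in adult and 2.74 and 3.54 in fetal libraries. With pseudogenes added it was 12.4 and 12.5 against 6.09 and 7.07, and complex III was then lowest, at 12.1 and 11.8 against 5.44 and 6.31. The adult mean was between 2.04 times (complex III) and 2.15 times (complex V) the fetal mean as deposited, and between 1.89 times (complexes IV and V) and 2.08 times (complex I) with pseudogenes added. The groups of no complex overlapped, as deposited or with pseudogenes added.

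**Figure D4:**
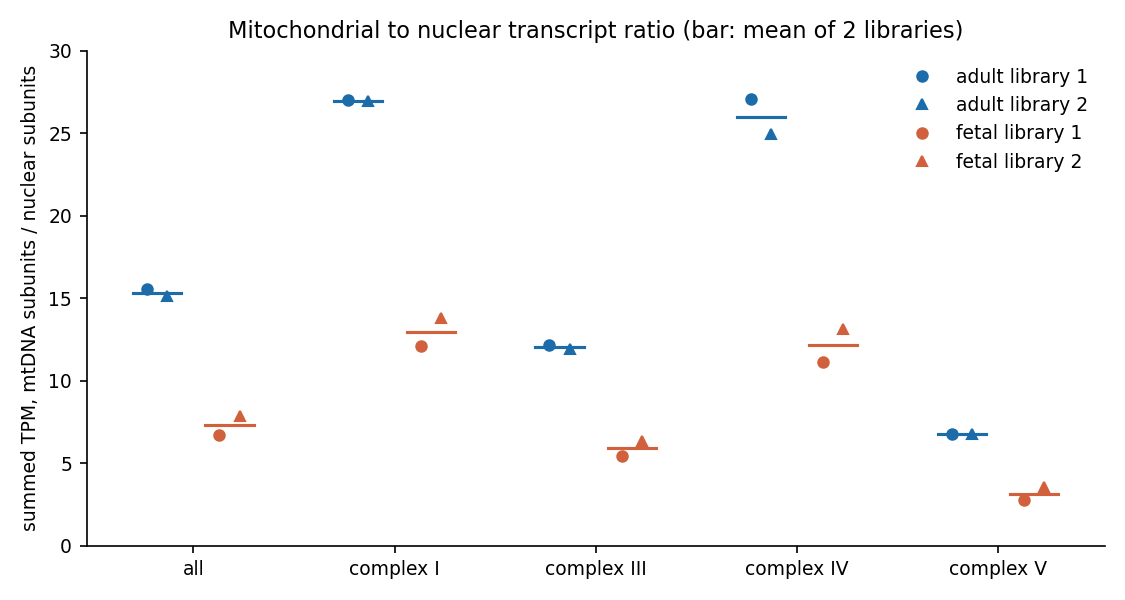
Summed TPM of mitochondrial subunits divided by summed TPM of nuclear subunits (linear axis from 0), for all complexes and for each complex with subunits from both genomes; points are libraries and bars are means of 2. Over all complexes the adult values are 15.6 and 15.1 and the fetal values 6.73 and 7.88, and the groups are apart in each complex.

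Complex I has 35 nuclear subunits here, and all were tested, with 26 called lower, 1 higher and 8 neither. All 7 core subunits, which carry the flavin and the iron-sulfur clusters or lie beside them, fell. Of the 28 accessory subunits, 19 fell, 1 rose and 8 were not called (background 32.7% lower and 33.9% higher). These role counts depend on the scale: on log2(TPM + 1), 2 of the 7 core subunits were called lower and 0 higher, and 7 accessory subunits lower and 9 higher (background 11.6% and 44.4%).
Ndufa6, an accessory subunit, went from 70.1 CPM in both adult libraries to 33.4 and 36.2 CPM (-1.01 ± 0.06). Ndufa1, a small membrane subunit, went from 14.6 and 16.0 CPM to 8.51 and 7.83 CPM (-0.90 ± 0.13). Ndufa10, the accessory subunit with the highest TPM, went from 166 and 163 CPM to 103 and 108 CPM (-0.64 ± 0.04). These 3 genes were also called lower with library totals and on TPM.
Ndufs4, an accessory subunit known from the human disease Leigh syndrome, was the member of complex I called higher. Its values were 45.4 and 47.0 CPM in adult and 54.1 and 50.5 CPM in fetal libraries, a log2 fold change of 0.18 ± 0.06 (edgeR adjusted p = 0.0264). The call was lost without adult library 1 (adjusted p = 0.102), without fetal library 1 (adjusted p = 0.195) and with DESeq2 (adjusted p = 0.107). On TPM the log2 fold change was 0.64 (limma adjusted p = 0.00174).

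Complex II has 4 subunits, and all 4 fell (background 32.7% lower and 33.9% higher). Sdhc, a membrane anchor, went from 151 and 161 CPM to 84.9 and 81.4 CPM (-0.91 ± 0.05, edgeR adjusted p = 3.92e-09). Sdhb, the iron-sulfur subunit, went from 113 and 109 CPM to 67.3 and 72.7 CPM (-0.66 ± 0.05). Sdha, the flavoprotein and the most abundant of the 4 by TPM, went from 549 and 552 CPM to 352 and 349 CPM (-0.65 ± 0.03). Sdhd, the other anchor, changed least (-0.41 ± 0.04). The median of complex II, -0.66, was the lowest of the 5 nuclear groups, and 3 of its 4 genes were called lower on TPM as well, with Sdhd at -0.03 there.

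Complex III has 8 nuclear subunits, of which 7 fell and 1 was not called (background 32.7% lower and 33.9% higher). The core proteins Uqcrc1 and Uqcrc2 and the Rieske iron-sulfur protein Uqcrfs1 all fell, with log2 fold changes of -0.69 to -0.43, and 2 of the 3 were called lower on TPM. Uqcrc2 went from 386 and 385 CPM to 238 and 239 CPM (-0.69 ± 0.03, edgeR adjusted p = 8.40e-10). Uqcrq, a small subunit, went from 64.3 and 67.7 CPM to 39.6 and 37.1 CPM (-0.78 ± 0.06), and Uqcr10 from 61.6 and 64.3 CPM to 41.1 and 40.0 CPM (-0.63 ± 0.06). Each of these 3 genes was also called lower on TPM.
Uqcrh, the hinge protein, had the highest TPM of these 8 genes in adult libraries, with 445 and 458 TPM in adult and 387 and 390 TPM in fetal libraries (-0.60 ± 0.05 in edgeR). Uqcrb, a quinone-binding subunit, stood apart from the others (named after its values were seen), at 138 CPM in both adult and 133 and 134 CPM in fetal libraries (-0.05 ± 0.04, edgeR adjusted p = 0.297). Its call depends on the scale, as Uqcrb was called higher with library totals (0.20, edgeR adjusted p = 0.000542) and on TPM (0.34, limma adjusted p = 0.00212). At 462 and 453 TPM it was above Uqcrh in the fetal libraries, and at 364 and 359 TPM below it in the adult ones.

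Complex IV has 17 nuclear genes here, several of them tissue isoforms of the same subunit. 13 were tested, with 11 called lower, 1 higher and 1 neither (background 32.7% lower and 33.9% higher). The widely expressed isoforms fell by small amounts. Cox6a1 went from 101 and 105 CPM to 67.6 and 70.8 CPM (-0.57 ± 0.05), Cox6b1 from 146 and 150 CPM to 106 and 103 CPM (-0.50 ± 0.04), and Cox7b from 126 and 129 CPM to 93.0 and 91.9 CPM (-0.46 ± 0.04). Cox7a2 (-0.27 ± 0.07) and Cox8a (-0.28 ± 0.07) fell least of the isoform genes, and both had a positive log2 fold change on TPM, 0.11 in each, without a call. Cox7a2l, a related protein that helps to form supercomplexes, went from 127 and 113 CPM to 83.8 and 84.8 CPM (-0.52 ± 0.06). On TPM, Cox7a2l (-0.12, limma adjusted p = 0.211) and Cox7b (-0.08, limma adjusted p = 0.182) were not called, while Cox6a1 and Cox6b1 were called lower. With library totals, Cox7a2 (edgeR adjusted p = 0.760) and Cox8a (edgeR adjusted p = 0.711) lost their calls. Cox6a1, Cox6b1, Cox7b and Cox7a2l kept theirs there. Ndufa4, which had the highest TPM of these 17 genes, held 433 and 442 TPM in adult and 425 and 408 TPM in fetal libraries (-0.44 ± 0.04 in edgeR, and -0.07 on TPM with limma adjusted p = 0.214).
Cox6b2, the testis isoform of subunit 6b, was the gene called higher. It held 3 and 5 counts in adult and 71 and 53 counts in fetal libraries, or 0.263 and 0.501 CPM against 4.95 and 4.03 CPM. The fetal level was 12.1 times the adult one (95% counting interval 5.94 to 28.6), and the log2 fold change was 3.55 ± 0.40 (edgeR adjusted p = 6.55e-06, at most 0.000745 in any alternative). In TPM, Cox6b2 was at 1.00 and 1.58 in adult and 19.7 and 16.7 in fetal libraries, beside 362, 367, 336 and 329 for Cox6b1.
Cox7a1, the heart and muscle isoform of subunit 7a, held 12 counts in each adult library and 6 and 0 counts in the fetal libraries (-2.32 ± 0.73, edgeR adjusted p = 0.0138). The adult level was 5.14 times the fetal one (95% counting interval 2.05 to 15.4). Without fetal library 2 the log2 fold change was -1.40 (adjusted p = 0.0909), and on log2(TPM + 1) limma gave an adjusted p of 0.0681. Cox6a2, the muscle isoform of subunit 6a, had 2 counts over all 4 libraries. Cox7b2, Cox8b and Cox8c, known from testis or muscle, had 0 counts in every library, where 3 counts would be 0.230 to 0.276 CPM of a library total.

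**Figure D5:**
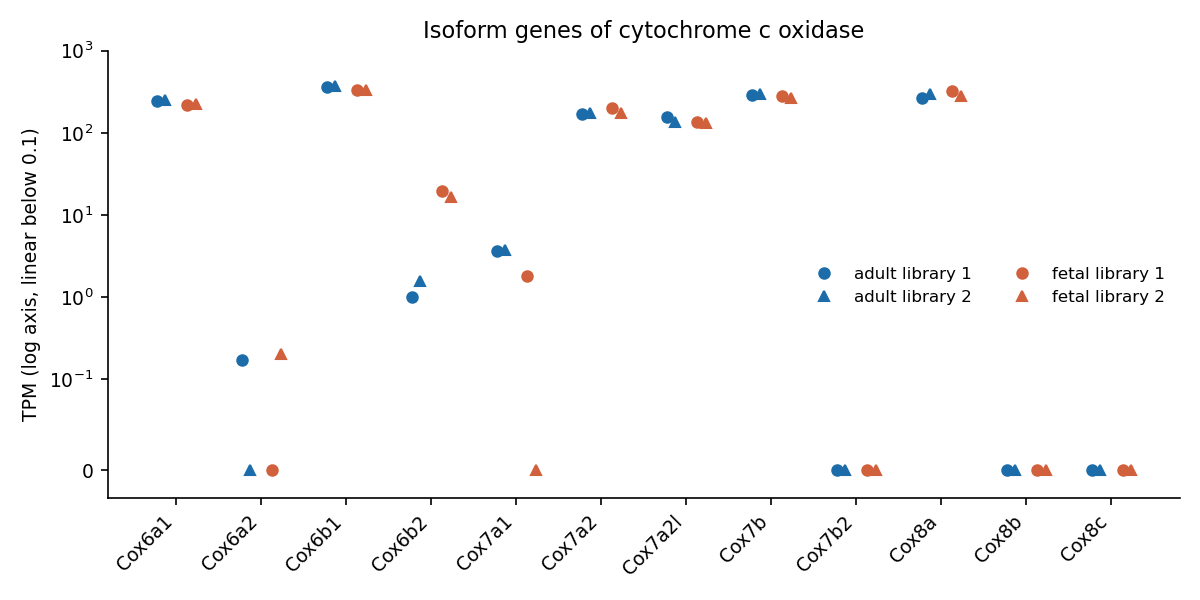
TPM of 12 isoform genes of cytochrome c oxidase in each library (log axis, linear below 0.1). The widely expressed isoforms lie above 100 TPM in all 4 libraries, Cox6b2 rises from 1.00 and 1.58 to 19.7 and 16.7 TPM, and Cox7b2, Cox8b and Cox8c are at 0.

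Complex V has 18 nuclear genes here, of which 17 were tested. Of these, 15 were called lower (background 32.7% lower and 33.9% higher) and 2, Atp5md and Atp5l, were not called. The remaining gene is a readthrough locus of Atp5o with counts in adult library 2 only. The 5 genes of the catalytic head and central stalk (log2 fold change -0.60 to -0.20), the 3 genes of the c ring (-0.57 to -0.33) and the 4 genes of the peripheral stalk (-0.54 to -0.34) all fell under TMM. Of the other 5 membrane subunits 3 fell. On log2(TPM + 1), limma called 2 of 5 genes lower in the head and central stalk, 1 of 3 in the c ring, 1 of 4 in the peripheral stalk and 1 of the other 5, with 1 of these 5 higher (background 11.6% lower and 44.4% higher).
Atp5b, the catalytic beta subunit, had the highest TPM of all nuclear members. It was at 1719 and 1753 CPM in adult and 1327 and 1334 CPM in fetal libraries (-0.38 ± 0.03, edgeR adjusted p = 8.12e-07), while its TPM were 1602 and 1648 against 1728 and 1658 (0.06, limma adjusted p = 0.272). Its direction thus changes with the scale. Atp5c1, the rotating gamma subunit, went from 342 and 325 CPM to 219 and 220 CPM (-0.60 ± 0.03). Atp5mpl, a small membrane subunit, went from 73.1 and 73.7 CPM to 47.0 and 49.5 CPM (-0.60 ± 0.06). Atp5c1 and Atp5mpl were called lower on TPM as well.
Atp5g1, Atp5g2 and Atp5g3 encode the same mature c subunit. Atp5g3 had the highest counts of the 3, with 220 and 228 CPM in adult and 155 and 147 CPM in fetal libraries (-0.57 ± 0.04), and Atp5g1 and Atp5g2 changed by -0.38 ± 0.05 and -0.33 ± 0.09. Atp5s was at 9.19 and 9.62 CPM against 7.81 and 5.93 CPM (-0.45 ± 0.17, edgeR adjusted p = 0.0386). Its call was lost in 7 of 15 alternatives, among them DESeq2 and the fit without fetal library 2 (-0.27).

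Processed pseudogenes also share sequence with some nuclear members. Pseudogenes held 2.80 to 3.22 times the counts of Ndufs5, 1.40 to 2.24 times those of Atp5l, 1.20 to 2.48 times those of Ndufb4, 0.992 to 1.29 times those of Ndufa12 and 0.608 to 1.06 times those of Cox7c. With these added, Atp5l moved from -0.07 to -0.32 and Cox7c from -0.15 to -0.37, and both were then called lower, so that 66 of 78 nuclear genes were lower. Values of these 5 genes are uncertain. Pseudogenes held less for other members, such as 0.439 to 0.519 times the counts of Cox7a2l and 0.178 to 0.317 times those of Atp5g2. With these added, Cox7a2l was at -0.53 and Atp5g2 at -0.29.

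Promoters of nuclear members are shown because known regulators of these genes, NRF1, YY1, the estrogen-related receptors and ETS factors, bind short motifs near start sites. RefSeq sequences (GRCm38.p6) from 250 bases before to 50 after the start site were matched for 69 of the 83 nuclear members. The NRF1 motif GCGCATGCG (either strand, overlapping its own reverse complement) was in 8 of the 69 (11.6%), beside 1.95% of all promoters of this length and 2.61% of those of protein-coding genes. The YY1 motif AAGATGGCG was in 7 (10.1%, beside 1.64% and 2.14%), the motif TCAAGGTCA of estrogen-related receptors in 2 (2.90%, beside 0.466% and 0.377%) and the ETS motif ACCGGAAGT in 1 (1.45%, beside 1.21% and 1.59%). The promoters with the NRF1 motif were those of Atp5g2, Atp5k, Atp5l, Cox6a1, Ndufa8, Ndufa11, Uqcr11 and Uqcrc1. Of these, the 100 bases before the start site are printed for 4 members, with the motif on either strand in capitals. They are Atp5g2 (chr15:102671048-102671147, minus strand), Atp5k (chr5:108434400-108434499, minus), Ndufa11 (chr17:56717662-56717761, plus) and Ndufa8 (chr2:36049339-36049438, minus).
Atp5g2: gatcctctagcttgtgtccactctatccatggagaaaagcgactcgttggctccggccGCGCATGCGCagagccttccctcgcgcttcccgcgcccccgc
Atp5k: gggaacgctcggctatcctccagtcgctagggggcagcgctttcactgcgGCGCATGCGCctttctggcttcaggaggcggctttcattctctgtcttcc
Ndufa11: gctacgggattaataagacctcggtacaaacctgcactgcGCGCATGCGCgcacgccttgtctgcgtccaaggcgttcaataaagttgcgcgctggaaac
Ndufa8: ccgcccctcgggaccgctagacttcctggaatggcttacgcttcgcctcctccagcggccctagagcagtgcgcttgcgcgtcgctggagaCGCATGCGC
Of these 4 genes, Ndufa8 (-0.53 ± 0.07), Atp5k (-0.38 ± 0.07) and Atp5g2 were called lower, and Ndufa11 was at -0.06 ± 0.11 (edgeR adjusted p = 0.658). A motif match describes these letters only, and binding was not measured.

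Genes that work with the subunits were described in lists, with calls from edgeR and TMM unless another scale is named. Each count below stands beside 32.7% of all genes called lower and 33.9% called higher. Of 9 further subunits and electron carriers, 7 were tested and 6 were lower. Cox4i1 was at 336 and 344 CPM in adult and 253 and 244 CPM in fetal libraries (-0.45 ± 0.03), and Cyc1, the cytochrome c1 of complex III, changed by -0.43 ± 0.04. Etfdh, which feeds electrons from fatty acid oxidation to coenzyme Q, went from 112 CPM in both adult libraries to 45.3 and 42.8 CPM (-1.34 ± 0.05), and its partner Etfa from 176 CPM in both to 81.5 and 76.2 CPM (-1.16 ± 0.04). Cycs, cytochrome c itself, was at 97.0 and 101 CPM against 102 and 105 CPM and was not called (0.07 ± 0.05), but it was called higher with library totals (0.31, edgeR adjusted p = 6.20e-05) and on TPM (0.42, limma adjusted p = 0.00262).
Of 45 tested assembly factors, 20 were lower (32.7% of all genes), 4 higher (33.9%) and 21 neither (median -0.23). Ttc19, which acts in complex III assembly, fell (-0.92 ± 0.09), as did Lyrm7, a chaperone of the Rieske protein (-0.84 ± 0.34), whose call was lost in 6 alternatives. The copper chaperone Cox17 rose (0.40 ± 0.10), and Cox11, which also handles copper for complex IV, was higher at 0.54 ± 0.22, a call lost in 4 alternatives.
Of 11 genes of coenzyme Q synthesis, 8 were lower and 2 higher. Coq8a, a kinase-like protein of the pathway, went from 53.0 and 53.7 CPM to 1.74 and 1.52 CPM (-5.02 ± 0.12, edgeR adjusted p = 1.84e-12). This is a far larger change than that of any subunit gene. Pdss1, which makes the side chain, went from 139.7 and 130 CPM to 27.8 and 28.0 CPM (-2.27 ± 0.06). Coq4 and Coq3 were higher by 0.37 ± 0.14 and 0.25 ± 0.09, and their calls were lost in 5 and 4 alternatives.
Of 16 genes of the tricarboxylic acid cycle, 14 were lower and 2 were not called, with Idh3b at -0.74 ± 0.04 and Pdha1, of the pyruvate dehydrogenase complex, at -0.67 ± 0.03. Of the 17 carriers, pores and import genes, 8 were higher and 6 lower (33.9% and 32.7% of all genes). Slc25a4, an ADP/ATP carrier, went from 65.3 and 68.5 CPM to 174 and 166 CPM (1.35 ± 0.05), and Vdac2, a pore of the outer membrane, rose by 0.44 ± 0.03. Slc25a1, the citrate carrier, and Vdac1 changed by -0.48 ± 0.04 and -0.39 ± 0.04.
Of 18 regulators of mitochondrial transcription and biogenesis, 8 were lower and 2 higher (32.7% and 33.9% of all genes). Ppargc1b, a coactivator of mitochondrial genes, went from 14.6 and 15.8 CPM to 3.63 and 4.41 CPM (-1.92 ± 0.16), and Lrpprc, which stabilises mitochondrial mRNAs, from 243 and 223 CPM to 144 CPM in both (-0.69 ± 0.04). Slirp, the partner of Lrpprc, was higher (0.33 ± 0.10), as was Nrf1 (0.23 ± 0.08), and these calls were lost in 2 and 3 alternatives. As a sign of RNA handling, 9 genes of nuclear and stress RNA had 3 called higher and 4 lower, with Hspa1b at 3.73 ± 0.11, Hspa1a at 3.42 ± 0.34, Jun at -2.20 ± 0.04 and Atf3 at -0.96 ± 0.08. Their part in the subunit differences was not tested.
These lists too shift with the scale. With library totals, 10 assembly factors were lower and 12 higher, and 4 and 3 genes of coenzyme Q synthesis, 9 and 3 of the tricarboxylic acid cycle, 2 and 14 of the carriers, pores and import genes, and 5 and 9 of the regulators (20.9% lower and 48.8% higher of all genes). On log2(TPM + 1), limma called 1 assembly factor lower and 14 higher, and 3 and 3 genes of coenzyme Q synthesis, 2 and 3 of the tricarboxylic acid cycle, 0 and 14 of the carriers, pores and import genes, and 3 and 9 of the regulators (11.6% and 44.4% of all genes). Coq8a, Pdss1, Etfdh, Etfa, Ppargc1b, Idh3b, Pdha1, Lrpprc, Slc25a4 and Vdac2 kept both direction and call with library totals and on TPM. Of the list genes given by the naming rule, none changed direction on these scales. Lyrm7 lost its call on both, and Slc25a1 and Vdac1 lost theirs on TPM. Cox4i1 and Cyc1 also kept their direction, without a call on TPM.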

How the data were processed

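Poly-A selected RNA of 4 organoid libraries was read from the tables the authors deposited. The deposited expected counts are RSEM estimates per Ensembl gene with no normalization, per the file headers. The deposited TPM are scaled by the authors for length and to a common total, per the file headers. The submitters' processing notes name STAR 2.7.3a, RSEM 1.3.3, Trim Galore and FastQC, with GRCm39 and mm10 as builds. The build, annotation and strand setting behind the tables are not given in the sources used here. Of 55416 identifiers, 52083 matched GENCODE M21, and 1 member was matched through RefSeq.

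Rounded counts were tested in R 4.3.3 with edgeR 4.0.16 (TMM, filterByExpr, quasi-likelihood F-test, Benjamini-Hochberg over 14271 genes), with DESeq2 1.42.0 and limma 3.58.1 (mean TPM of at least 0.5) as alternatives. limma log2 values were computed from the deposited TPM. CPM are TMM-scaled, with factors of 0.918 and 0.919 in adult and 1.10 and 1.08 in fetal libraries. The standard error of a log2 fold change is its size divided by the square root of F. Intervals and floors (3 counts) cover counting error alone, as PCR copies carry no molecular identifiers here. Chi-square values per degree of freedom between replicates were 3.30 (adult) and 2.81 (fetal), so replicates differed beyond sampling noise. The edgeR steps were tested on simulated data.

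Pseudogenes were counted as sharing sequence with a member when they had at least 50 runs of 50 bases in common on the same strand.

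Named genes are the 13 mitochondrial members, up to 3 called lower and 3 called higher per complex at 1 CPM or more, the most abundant member of each complex, the complex IV isoform genes, and up to 2 called in each direction per list. Sdhd, Ndufa8, Atp5k, Atp5g1, Atp5g2, Cox4i1, Cyc1, Cycs and other genes named beside them were chosen after their values were seen. The members, lists and roles were chosen with earlier results of these data known. A gene that the naming rule gave is not reported here.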

Additional observations from a re-analysis of the deposited data

How the results depend on the processing

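The counts of called subunits, their medians and the mitochondrial shares and ratios were recomputed under other scalings, filters, tests and with single libraries left out. Adding pseudogene counts was chosen after seeing the data. All 13 mitochondrial genes were called lower in each of the 15 alternatives. Their median log2 fold change, -1.51, was -1.27 with library totals, -1.13 with limma on log2(TPM + 1) and on log2(TPM + 0.1), and -1.60 to -1.43 with single libraries left out. For nuclear subunits, the count called lower (64) was 41 with library totals, 24 with either limma fit and 56 with the DESeq2 test. The count called higher (2) was 8 with library totals, 13 with either limma fit, 1 with the DESeq2 test and 1 to 3 with single libraries left out. The nuclear median, -0.43, was -0.18 with library totals, -0.062 with either limma fit, -0.41 with pseudogene counts added and -0.45 to -0.41 with single libraries left out. With library totals the median of all genes moved by a like amount, to 0.25, and the scaling is what differs in that fit. Of the genes the naming rule gave, Atp5b (0.059), Cox7a2 (0.11) and Cox8a (0.11) changed sign with both limma fits. Of the genes named after their values were seen, Ndufs5 (0.032), Ndufs6 (0.21), Cox5a (0.20), Atp5g1 (0.019), Atp5k (0.014) and Atp5g2 (0.075), called lower with TMM, were also above 0 on log2(TPM + 1), as were Ndufa11 (0.37), Uqcrb (0.34), Cox7c (0.21), Atp5md (0.24) and Atp5l (0.18), which TMM did not call. The share difference was -10.3 to -9.56 percentage points, and the log2 ratio difference -1.19 to -0.96, with single libraries left out. Over the 63 genes of the naming rule and 15 alternatives, 50 values kept their direction but lost the call, and 888 kept both.

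Libraries with the same replicate number did not deviate together (r = -0.0742 across 9488 genes), and with a replicate block 64 nuclear subunits were lower, 2 higher and 13 mitochondrial ones lower; of the named genes Cox11 and Coq4 lost their calls. With 2 libraries a group, genes at a few counts, such as Cox7a1, rest on single libraries.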
